A study of Stylosanthes guianensis with 6 samples.

Results

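The ribosomal proteins of the cytosolic ribosome, together with 4 organelle-type ribosomal proteins, were followed in leaves of stylo (Stylosanthes guianensis), a tropical forage legume, under manganese (Mn) toxicity. The members are 51 unigenes of the 102864 in the tables (unigenes stand for genes in an assembly made without a genome). They were taken from the study's list of unigenes that differed between the treatments, by a protein description that holds the words "ribosomal protein". Descriptions that name an organelle genome, a kinase, or the alga Coccomyxa or the fungus Rhizopus were left out, which removed 4 of 55 unigenes. By description, 23 members belong to the 40S subunit, 24 to the 60S subunit and 4 to a 50S subunit of bacterial type. All were thus chosen by the Mn contrast itself, so their levels and fold changes are given as a description without a test, and ribosomal protein unigenes that the study did not list, or that lie in the rows not used here, are not counted.

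Plants of the genotype TF303 were grown in nutrient solution for 30 d and then for 10 d at 400 μM Mn (Mn toxicity) or 5 μM Mn (control). One label field of the deposited samples gives these numbers in mM, while the protocol text and the methods of the study give μM. Leaf RNA of both treatments was sequenced in 3 libraries each, and a replicate was a hydroponic box with 4 seedlings. Since no genome was used, no chromosome position is known for any unigene. Levels are in RPKM, the reads of a unigene scaled to its length and to the mapped reads of the library.

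A cytosolic ribosome of a plant consists of a small 40S subunit, which reads the mRNA, and a large 60S subunit, which forms the peptide bond. Each protein is generally present once per ribosome, apart from the acidic P proteins of the stalk, which are present in several copies. Plants encode most of these proteins in small gene families whose copies make nearly the same protein. Chloroplasts and mitochondria have ribosomes of their own, with 30S or 50S subunits in the chloroplast, and many of their proteins are nevertheless made from nuclear genes. Ribosomal protein genes are known for being expressed together, in step with growth and with the demand for protein synthesis.

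The Mn toxicity libraries did not share one scale. Library totals recovered from the RPKM steps were 36.2 to 37.8 M reads under Mn toxicity and 31.1 to 37.0 M reads in the control. The sum of RPKM over all unigenes was 1241589, 877008 and 1547888 in Mn toxicity replicates 1, 2 and 3, and 889283 to 923158 in the controls. The median-of-ratios size factors, which set the median unigene of each library to the same level, were 0.98, 1.29 and 0.63 under Mn toxicity and 1.07 to 1.12 in the control. As leaf markers, 4 chloroplast-encoded unigenes were taken from the study's list (the photosystem proteins D1, CP43, CP47 and PsaA). They were thus chosen by the same contrast and are not independent of it. These 4 summed to 877, 66.5 and 1557 RPKM under Mn toxicity, against 53.8, 101 and 75.4 RPKM in control replicates 1, 2 and 3. All 4 were detected in every library, but Mn toxicity replicates 1 and 3 stood far above replicate 2. Results are therefore given on both scales, and the part of these library differences in the member values was not tested.

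The ribosomal protein transcripts were higher in Mn toxicity leaves on both of these scales. Summed over the 51 members, the level was 5519, 5553 and 4314 RPKM in Mn toxicity replicates 1, 2 and 3, against 2703, 2607 and 2663 RPKM in control replicates 1, 2 and 3. The lowest Mn toxicity library was above the highest control library by far more than the spread among controls. Group means were 5129 ± 706 and 2658 ± 47.9 RPKM (SD, n = 3 each), a ratio of 1.93. Set against the sum of RPKM over all unigenes, which differed most between the Mn toxicity libraries, the members made up 0.444%, 0.633% and 0.279% under Mn toxicity and 0.303%, 0.282% and 0.299% in the control. By that measure Mn toxicity replicate 3 was below every control library. In shares of all mapped reads the members held 0.449%, 0.454% and 0.342% under Mn toxicity and 0.222%, 0.212% and 0.220% in the control. These leaf RNA data cannot tell a change in the mix of cell types from a change of the RNA within each cell.

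Of the 51 members, 48 had a mean of at least 0.5 RPKM over the 6 libraries and entered the fit across all unigenes, and 44 had a mean of at least 5 RPKM. Among these 44, the ratio of group means ran from 1.70 to 2.42, with a median of 1.87. Their control libraries differed by a median coefficient of variation of 4.72%, against 17.1% among the Mn toxicity libraries. The SD of the fitted log2 fold changes, on the log2(RPKM + 0.5) scale, was 0.13 over the 44 members. The choice of members by fold change removed unigenes that changed less, so this range is not set against that of all unigenes.

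**Figure D1:**
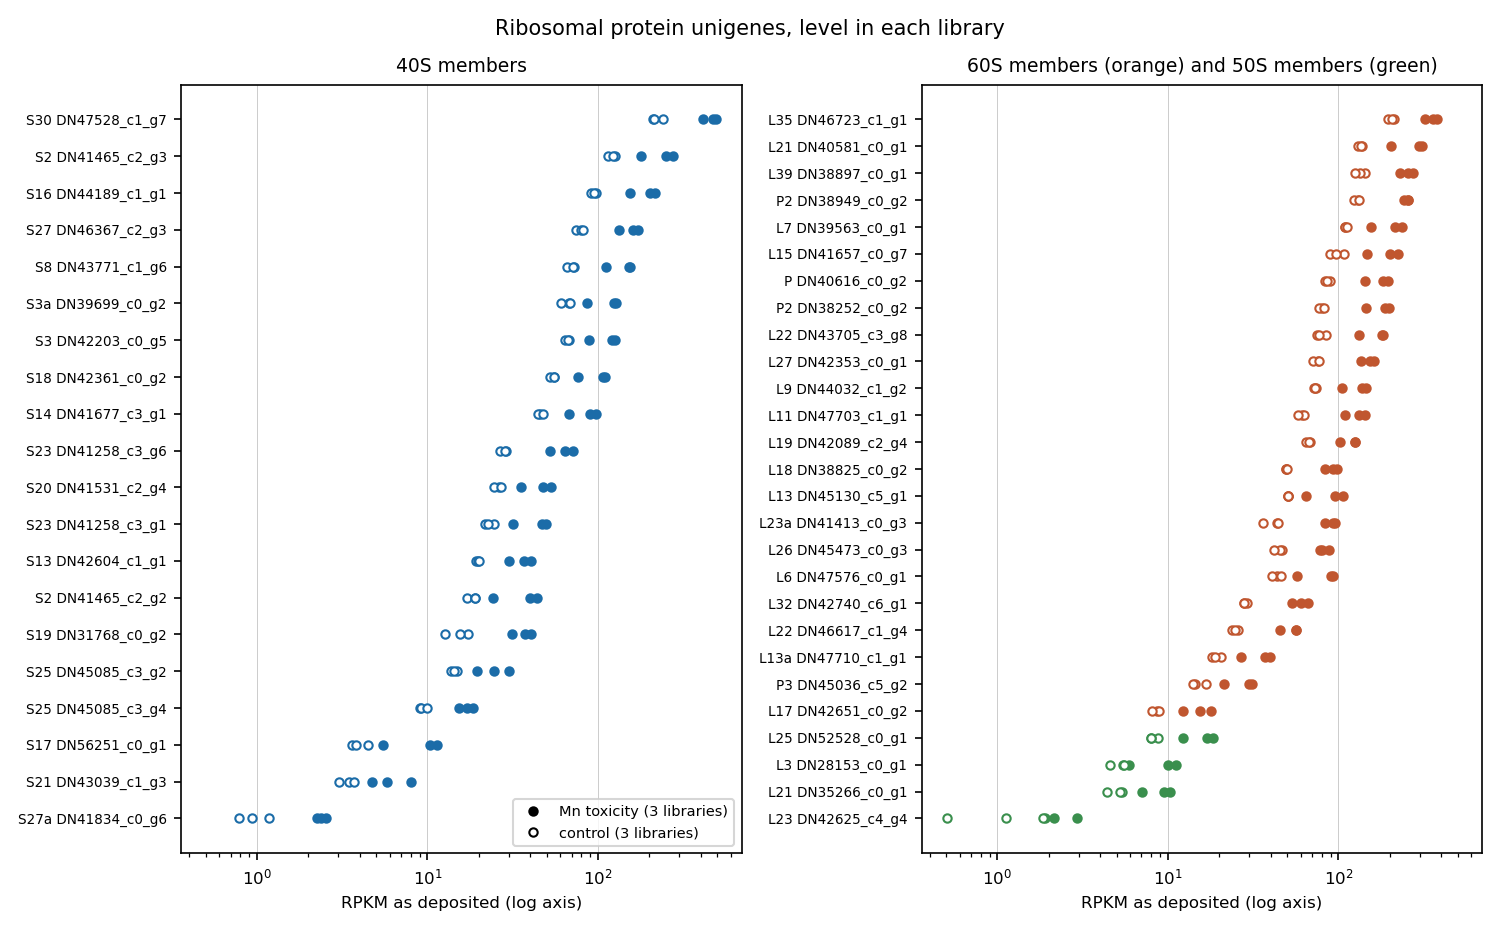
Level of the 47 members that were above 0 in all 6 libraries, in RPKM as deposited on a log axis, with filled points for the 3 Mn toxicity libraries and open points for the 3 control libraries. Members are ordered by level within the 40S (left, blue), 60S (right, orange) and 50S (right, green) classes. Filled points lie to the right of the open points for every member shown, closest for the 50S proteins L3 and L23.

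As deposited, every Mn toxicity library was above every control library for 47 of the 48 members tested, and the remaining one, a 40S S16 unigene, was 0 in all Mn toxicity libraries. Over all unigenes tested, 9.41% had every Mn toxicity library above every control library in RPKM as deposited, and 22.7% once rescaled by median of ratios. The count of members was 47 on both scales. When each library was set to the same sum of RPKM it was 12, where 2.78% of all unigenes had such groups. On the scale as deposited, limma (adjusted p under 0.05, log2 fold change 1 or more in either direction) called 10 members higher under Mn toxicity, where 2.09% of all unigenes were called higher. After median-of-ratios scaling it called 43 members, all 10 among them, where 4.37% of all unigenes were called higher. With the same sum of RPKM it called no member higher, and 0 had an unadjusted p under 0.05 in that direction, where 0.935% of all unigenes were called higher. Since the contrast chose the members, nothing is read from these counts. They also depended on single libraries. Leaving out control replicate 1 or 3 left no member called by limma as deposited, although 44 had an unadjusted p under 0.05 in either case, and 0.641% and 0.479% of all unigenes were called higher. Leaving out control replicate 2 or Mn toxicity replicate 1 left 1 member called, where 0.605% and 0.689% of all unigenes were. Leaving out Mn toxicity replicate 2 gave 8 calls (background 2.59%), and leaving out Mn toxicity replicate 3 gave 26 (background 5.65%). On the rescaled values 24 were called without Mn toxicity replicate 3 (background 5.45%) and 35 to 45 without any other single library (background 2.96% to 5.92%).

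The rank of a member within its own library does not depend on the scale of that library. Among the 30913 unigenes, the 44 members with a mean of at least 5 RPKM had a median percentile of 97.4, 96.9 and 97.4 in Mn toxicity replicates 1, 2 and 3, against 93.9, 94.0 and 93.9 in control replicates 1, 2 and 3. Mn toxicity replicate 3, low in RPKM, lay within the range of the other Mn toxicity libraries in this rank. As the members were chosen by the Mn contrast, a rise in rank follows from the choice, and nothing is read from it. Ranks so near the top also leave little room for differences between libraries. The part of library scale in the values of replicate 3 was not tested.

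How the 3 Mn toxicity libraries were ordered turned over with the scaling. As deposited, Mn toxicity replicate 3 was the lowest Mn toxicity library for 43 of the 44 members, with a median log2 ratio to the control mean of 0.60, against 1.04 and 1.07 in the other Mn libraries. Rescaled by median of ratios, Mn toxicity replicate 2 was the lowest for 43 of the 44, with a median log2 ratio of 0.84, and Mn toxicity replicates 1 and 3 had 1.22 and 1.41. Expressed as folds after this scaling, the 3 medians were 2.32, 1.79 and 2.66. On both scales every one of the 44 members lay above its control mean in all 3 Mn toxicity libraries, the lowest single log2 ratio being 0.18 as deposited and 0.54 after scaling.

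**Figure D2:**
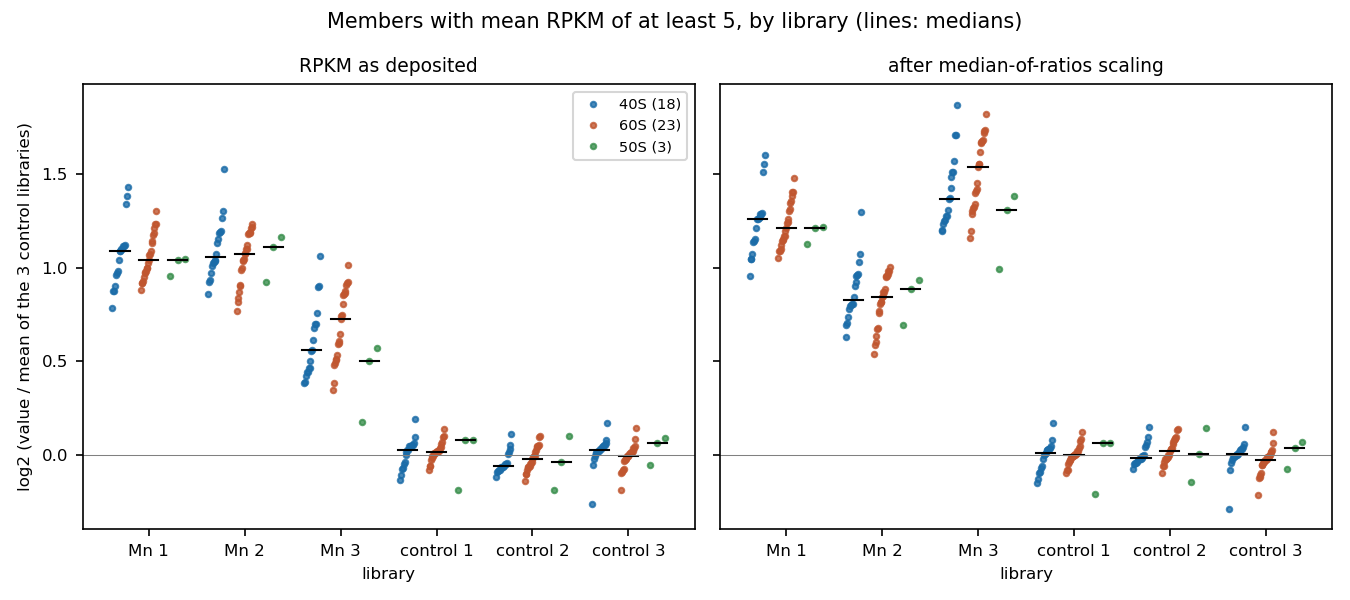
The log2 ratio of each library to the mean of the 3 control libraries for the 44 members with a mean of at least 5 RPKM, as deposited (left) and rescaled by median of ratios (right), with 1 point per member and a line at the class median. Blue is 40S (18 members), orange 60S (23) and green 50S (3). Mn toxicity replicate 3 is the lowest Mn library on the left (class medians 0.50 to 0.73) and the highest on the right (1.31 to 1.54).

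The 40S members name 18 different proteins. Their summed level was 2049, 2106 and 1565 RPKM under Mn toxicity, against 985, 970 and 991 RPKM in the control, a ratio of group means of 1.94. Levels within the class were far apart although the proteins occur in equal numbers in the ribosome. Among the 18 members with a mean of at least 5 RPKM the control means ran from 3.96 RPKM for S17 to 222 RPKM for S30, a span of 55.9-fold, and the Mn toxicity means spanned 50.8-fold. RPKM corrects for unigene length, but several unigenes are fragments and gene copies are split, so these spans are not those of whole gene families.

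The most abundant 40S member was S30 (TRINITY_DN47528_c1_g7), which in mammals is made as a fusion with a ubiquitin-like protein. It had 474, 493 and 414 RPKM in Mn toxicity replicates 1, 2 and 3 and 211, 240 and 214 RPKM in control replicates 1, 2 and 3. The groups were apart, with Mn toxicity replicate 3 the lowest of its group, and the ratio of group means was 2.08. S2 (TRINITY_DN41465_c2_g3), a relative of bacterial S5 beside the channel where mRNA enters, had 249, 277 and 179 RPKM under Mn toxicity and 126, 115 and 123 RPKM in the control. S16 (TRINITY_DN44189_c1_g1), a relative of bacterial S9 that reaches towards the tRNA, had 201, 216 and 154 RPKM under Mn toxicity, against 97.9, 90.5 and 95.4 RPKM in the control. Among the Mn toxicity libraries S2 and S16 had the order seen for S30, with replicate 2 highest and replicate 3 lowest.

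The fitted log2 fold change of the 40S class was largest for S19 and for 1 of the S23 unigenes. S19 (TRINITY_DN31768_c0_g2), which yeast and human cells need to mature the RNA of the small subunit, had 40.7, 37.3 and 31.5 RPKM under Mn toxicity and 17.3, 15.5 and 12.6 RPKM in the control. Its fitted log2 fold change was 1.25 (SE 0.22) as deposited and 1.49 (SE 0.21) when rescaled. Both groups varied for S19, and the lowest control library was replicate 3. Apart from the second S16 unigene, which was lower under Mn toxicity, the smallest values in the class belonged to S3 (TRINITY_DN42203_c0_g5), which lines the mRNA entry channel, and to 1 of the S25 unigenes. S3 had 121, 126 and 88.3 RPKM under Mn toxicity, against 67.2, 63.8 and 66.5 RPKM in the control, with a fitted log2 fold change of 0.74 (SE 0.19) as deposited and 0.99 (SE 0.15) after scaling. Even here the lowest Mn toxicity library exceeded the highest control library.

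The 60S members name 21 different proteins. Their summed level was 3430, 3405 and 2722 RPKM under Mn toxicity, against 1697, 1619 and 1651 RPKM in the control, a ratio of 1.92. The summed 40S level was 0.597, 0.618 and 0.575 of the 60S level in Mn toxicity replicates 1, 2 and 3, and 0.580, 0.599 and 0.600 in control replicates 1, 2 and 3. The groups overlapped in this ratio, which averaged 0.597 ± 0.022 and 0.593 ± 0.011 (SD, n = 3 each). The median fitted log2 fold change was 0.87 for 40S (21 tested) and 0.90 for 60S (23 tested), where the median over all unigenes tested was -0.20. After median-of-ratios scaling the medians were 1.11 and 1.15, with a median over all unigenes of 0.00. The difference, 40S minus 60S, was -0.04 on both scales and ran from -0.09 to 0.01 over all alternatives. This was within the spread of 0.11 (SD) of the difference among the Mn toxicity libraries. Both classes passed the study's limit on fold change in this same contrast, which by itself draws their medians together. Nothing is therefore read from the likeness of the classes.

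The highest 60S levels belonged to 3 proteins, of which L35 and L39 lie at the tunnel through which the new protein leaves the ribosome. L35 (TRINITY_DN46723_c1_g1) had 377, 361 and 320 RPKM under Mn toxicity, against 211, 196 and 207 RPKM in the control. L39 (TRINITY_DN38897_c0_g1) had 273, 229 and 255 RPKM under Mn toxicity, against 144, 134 and 126 RPKM in the control. L21 (TRINITY_DN40581_c0_g1), another protein of the large subunit, had 297, 311 and 203 RPKM under Mn toxicity and 137, 131 and 136 RPKM in the control. L21 followed the common order of the libraries, with Mn toxicity replicate 3 well below the other Mn toxicity replicates, while L39 was lowest in Mn toxicity replicate 2.

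By fitted log2 fold change the 60S class ran only from 0.78 to 1.13 as deposited and from 1.03 to 1.38 after scaling. The upper end was L23a (TRINITY_DN41413_c0_g3), which sits at the tunnel exit and binds the signal recognition particle, with 93.4, 96.0 and 83.4 RPKM under Mn toxicity and 43.4, 44.4 and 36.3 RPKM in the control. Just below it came a P2 unigene, described with the stalk. L13 (TRINITY_DN45130_c5_g1), another large-subunit protein, was at the lower end, with 96.1, 106 and 64.4 RPKM under Mn toxicity, against 50.8, 50.4 and 50.3 RPKM in the control. L35 had the next smallest value, 0.78 (SE 0.16), although its level was the highest of the class. For L13 the 3 controls were almost identical, and Mn toxicity replicate 3 was the Mn library nearest to them.

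The stalk of the large subunit, built from acidic P proteins, recruits the elongation factors, and plants have a P3 protein of their own beside P1 and P2. There were 4 such members, chosen by the same contrast. All 4 had every Mn toxicity library above every control library on both scales, where 9.41% and 22.7% of all unigenes did. With the same sum of RPKM 2 of the 4 did, where 2.78% of all unigenes did. P2 (TRINITY_DN38949_c0_g2) had 257, 255 and 242 RPKM under Mn toxicity and 130, 123 and 132 RPKM in the control, with an SD of 8.19 RPKM among the Mn toxicity libraries. The other P2 unigene (TRINITY_DN38252_c0_g2) had 197, 188 and 145 RPKM under Mn toxicity, against 80.6, 76.5 and 82.7 RPKM in the control. The first of this pair thus barely followed the drop of Mn toxicity replicate 3 that the second shared with most members. An acidic protein whose number the description does not give (TRINITY_DN40616_c0_g2) had 184, 197 and 143 RPKM under Mn toxicity and 88.8, 83.9 and 86.2 RPKM in the control. P3 (TRINITY_DN45036_c5_g2) was the lowest of the 4, at 30.0, 31.0 and 21.4 RPKM under Mn toxicity, against 14.4, 14.0 and 16.6 RPKM in the control. The fitted log2 fold changes of the 4 were 0.83 to 1.13 as deposited and 1.08 to 1.38 after scaling.

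The 50S members are organelle-type proteins whose descriptions name no organelle genome, and they were far less abundant than the cytosolic classes. The summed level of the 4 was 39.4, 42.0 and 27.0 RPKM under Mn toxicity, against 20.4, 18.4 and 19.8 RPKM in the control. Their ratio to the 60S sum was 0.0115, 0.0123 and 0.0099 under Mn toxicity and 0.0120, 0.0114 and 0.0120 in the control, so that the groups overlapped. L25 (TRINITY_DN52528_c0_g1), a relative of a bacterial protein that binds the 5S RNA, had 16.9, 18.4 and 12.2 RPKM under Mn toxicity, against 8.69, 7.99 and 7.92 RPKM in the control. L3 (TRINITY_DN28153_c0_g1), described as chloroplastic and related to a protein near the site of peptide bond formation, had 10.1, 11.2 and 5.88 RPKM under Mn toxicity and 5.48, 4.56 and 5.52 RPKM in the control. Its Mn toxicity replicate 3 was hardly above the controls, and its fitted log2 fold change of 0.70 (SE 0.29) was the smallest of the 47 members that were higher under Mn toxicity.

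L21 (TRINITY_DN35266_c0_g1), described as mitochondrial, had 10.3, 9.51 and 7.08 RPKM under Mn toxicity and 4.40, 5.38 and 5.23 RPKM in the control. L23-like (TRINITY_DN42625_c4_g4), whose bacterial relative sits at the tunnel exit, had 2.14, 2.94 and 1.89 RPKM under Mn toxicity, against 1.86, 0.51 and 1.12 RPKM in the control, or 60, 79 and 53 reads against 50, 14 and 26 reads. The groups of L23-like came within a few reads of each other, and control replicate 2 was the low one. The chloroplast-encoded marker unigenes were in the order replicate 3, 1, 2 from high to low among the Mn toxicity libraries. None of the 4 had this order as deposited, but after median-of-ratios scaling L25 and L21 had it, as did 40 of the 44 members with a mean of at least 5 RPKM. The size factors were 0.63, 0.98 and 1.29 for Mn toxicity replicates 3, 1 and 2. Dividing by them puts even a unigene with equal RPKM in this order, so nothing is read from it. The median fitted log2 fold change of the 50S members was 0.80 as deposited and 1.01 after scaling, with 3 of the 4 called on the second scale (background 4.37%) and none on the first (background 2.09%).

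The edge of the study's choice, a log2 fold change of 1, ran through the members after median-of-ratios scaling. Just inside were the mitochondrial L21 at 1.001 and S3a (TRINITY_DN39699_c0_g2) at 1.002. Just outside, at 0.99, were S3 and an S25 unigene (TRINITY_DN45085_c3_g2). S3a, a protein of the 40S platform, had 128, 125 and 86.0 RPKM under Mn toxicity, against 68.1, 60.7 and 68.8 RPKM in the control. In all, 43 tested members were at or above 1 after scaling, 4 were between 0 and 1 and 1 was below 0.

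Some proteins were represented by a pair of members, whose ratio within a library is free of the library's scale. Reads of near-identical copies may have been divided between them by the estimation, so the level of either member of a pair is uncertain. S23, a relative of bacterial S12 at the decoding centre, had 71.0, 63.7 and 52.3 RPKM under Mn toxicity and 29.0, 26.5 and 28.7 RPKM in the control for TRINITY_DN41258_c3_g6. For TRINITY_DN41258_c3_g1 of the same assembly component it had 49.4, 46.96 and 31.9 RPKM under Mn toxicity, against 24.7, 21.7 and 22.8 RPKM in the control. The first was 1.44, 1.36 and 1.64 times the second under Mn toxicity, against 1.17, 1.22 and 1.26 times in the control. The ratio was thus higher in every Mn toxicity library than in any control library. Several pairs were compared with 3 libraries per treatment, where groups of a single pair can come apart by chance. A shift within the S23 pair was not tested. For the P2 pair the ratio was 1.30, 1.35 and 1.66 under Mn toxicity, against 1.61, 1.61 and 1.60 in the control, and the groups overlapped.

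The other pairs kept their ratio within the spread of the libraries. For S2 the second unigene (TRINITY_DN41465_c2_g2) had 39.8, 44.1 and 24.1 RPKM under Mn toxicity, against 17.1, 19.1 and 18.9 RPKM in the control. The S2 pair ratio averaged 6.66 ± 0.66 under Mn toxicity and 6.63 ± 0.70 in the control (SD, n = 3 each). S25, which in yeast and human cells serves initiation at internal entry sites, had 24.7, 30.1 and 19.5 RPKM under Mn toxicity and 15.0, 13.7 and 14.3 RPKM in the control for TRINITY_DN45085_c3_g2. TRINITY_DN45085_c3_g4, also S25, had 18.5, 17.0 and 15.2 RPKM under Mn toxicity, against 9.06, 9.11 and 9.93 RPKM in the control. The S25 ratio was 1.46 ± 0.27 under Mn toxicity and 1.53 ± 0.11 in the control.

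L22, an RNA-binding protein that yeast can do without, had 183, 180 and 132 RPKM under Mn toxicity, against 85.0, 75.02 and 77.4 RPKM in the control for TRINITY_DN43705_c3_g8. TRINITY_DN46617_c1_g4, the other L22 unigene, had 56.3, 56.4 and 45.4 RPKM under Mn toxicity and 23.8, 25.7 and 24.9 RPKM in the control. Both L22 unigenes were among the 10 called as deposited, and their ratio was 3.12 ± 0.18 under Mn toxicity and 3.20 ± 0.33 in the control.

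The remaining pairs, of S3a, L19 and S16, set an abundant unigene beside one at or near 0. L19 (TRINITY_DN42089_c2_g4), which forms a bridge to the small subunit, had 126, 125 and 102 RPKM under Mn toxicity, against 68.0, 64.4 and 67.4 RPKM in the control. The second L19 unigene (TRINITY_DN0_c0_g1, 331 bp) had 8, 0 and 12 reads under Mn toxicity and no read in the control. Likewise the second S3a unigene (TRINITY_DN13505_c0_g1, 415 bp) had 11, 0 and 11 reads under Mn toxicity and none in the control. Neither has a nucleotide match in the study's list, and Mn toxicity replicate 2 was at 0 for both. Against a floor of 3 reads in each control library, the Mn toxicity mean was 2.04 times the floor for L19 and 2.24 times for S3a. As Mn toxicity replicate 2 had no read, the groups overlapped, and these values are no bounds on a difference between the treatments. For L19 the value was 1.83, 3.05 and 1.22 when Mn toxicity replicate 1, 2 or 3 was left out. For S3a it was 1.68, 3.36 and 1.68 in the same order.

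The second S16 unigene (TRINITY_DN55534_c0_g1, 334 bp) was the only member lower under Mn toxicity, with no read in any Mn toxicity library and 7, 4 and 52 reads in control replicates 1, 2 and 3. Its nucleotide match is a rice cDNA. Of its 63 reads, 52 came from control replicate 3. Against a floor of 3 reads in each Mn toxicity library it was at least 8.15-fold lower, or at least 1.87-fold lower without control replicate 3. The fitted log2 fold change of -1.76 (SE 0.61) was not called on either scale. It was called lower when libraries were set to the same sum of RPKM (background 2.88%) or fitted with a replicate block (background 5.72%).

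Another 4 members were below a mean of 5 RPKM or matched another group of organisms. S26 (TRINITY_DN48306_c0_g1), which lies where the mRNA leaves the small subunit, is described by a chytrid fungus and a Candida sequence. It had 8, 0 and 14 reads under Mn toxicity and none in the control, so the groups overlapped. Its Mn toxicity mean was 2.24 times a floor of 3 reads in each control library. Without Mn toxicity replicate 1, 2 or 3 this value was 2.14, 3.36 and 1.22. S27a (TRINITY_DN41834_c0_g6), made as a fusion with ubiquitin, has a protein match in the alga Klebsormidium and a nucleotide match in the grass Oryza brachyantha. It had 40, 41 and 38 reads under Mn toxicity, against 19, 13 and 13 reads in the control. Unlike S26, it was present in every library and the groups were apart, at 2.37, 2.54 and 2.25 RPKM under Mn toxicity, against 1.18, 0.79 and 0.93 RPKM in the control. S21 (TRINITY_DN43039_c1_g3), a small 40S protein, had 5.76, 8.03 and 4.75 RPKM under Mn toxicity and 3.03, 3.46 and 3.68 RPKM in the control. The fourth, the 50S L23-like unigene, is given above.

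The list holds further unigenes whose protein match names a fungus, an oomycete or an alga, and many of these were high in 1 library. There were 24 of them, chosen by the same contrast, of which S26 and S27a are members. Their summed level was 12.9, 11.9 and 26.3 RPKM under Mn toxicity, against 19.2, 17.0 and 44.4 RPKM in the control. Of the 24, 10 were highest in Mn toxicity replicate 3 and 9 in control replicate 3, while 11 had reads only under Mn toxicity. The shares of all unigenes with these patterns are not given here, so nothing is read from these counts. Of the 11 tested, 0 were called higher as deposited (background 2.09%) and 1, the member S27a, after median-of-ratios scaling (background 4.37%). On both scales 2 were called lower (background 3.69% and 3.77%). Among these 2, an ammonium transporter unigene (TRINITY_DN44025_c2_g8) had 62, 76 and 36 reads under Mn toxicity, against 174, 151 and 138 reads in the control. The low S16 unigene was highest in control replicate 3, and the low S26 and L19 unigenes were highest in Mn toxicity replicate 3. The part of other organisms in these members was not tested. None of the 7 members under a mean of 5 RPKM enters the ratios given for the 44.

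Unigene lengths recovered from the RPKM steps ran from 202 bp for S30 to 1893 bp for L32 among the members. In Mn toxicity replicate 3 the shorter of the 44 members stood higher. There, after median-of-ratios scaling, the median log2 ratio to the control mean was 1.64 for the 14 members under 800 bp and 1.33 for the 30 longer ones. In Mn toxicity replicate 1 the same medians were 1.26 and 1.21, and in Mn toxicity replicate 2 they were 0.94 and 0.82. Spearman's rho between length and ratio was -0.34, -0.17 and -0.51 in Mn toxicity replicates 1, 2 and 3, over 44 unigenes that share 1 library each time and are not independent. Among the 37 other ribosomal protein unigenes of the list with a mean of at least 5 RPKM, rho was -0.05, -0.02 and -0.09.

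**Figure D3:**
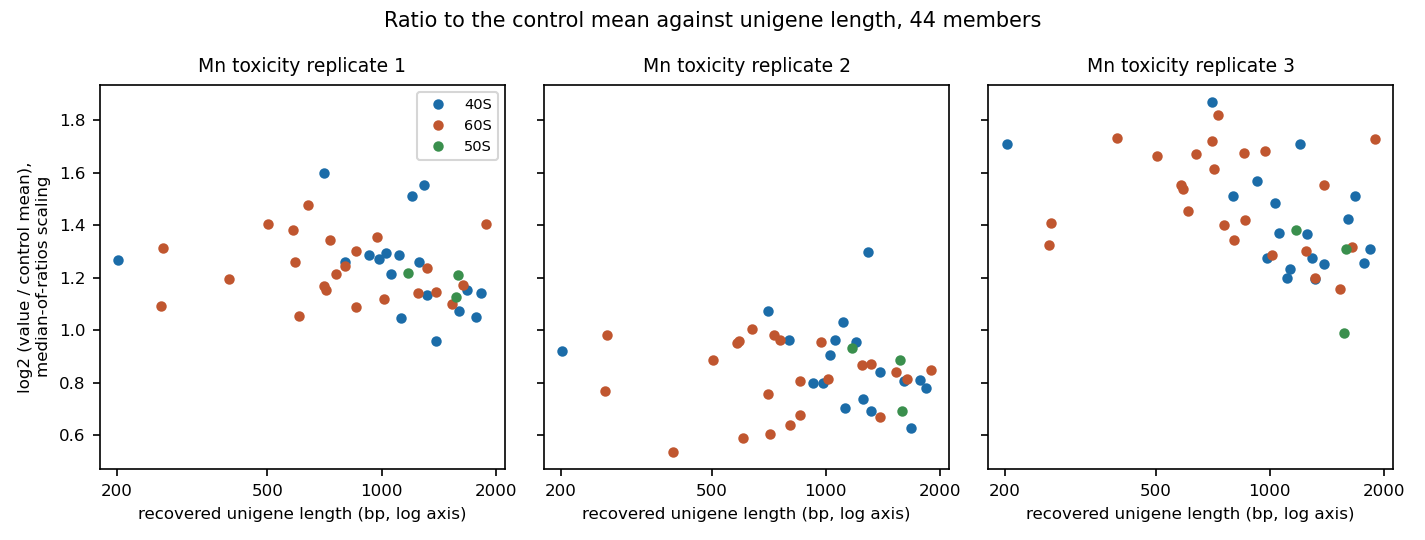
The log2 ratio to the control mean after median-of-ratios scaling against the recovered unigene length (log axis) for the 44 members with a mean of at least 5 RPKM, in each Mn toxicity library, with blue for 40S, orange for 60S and green for 50S. Spearman's rho was -0.34, -0.17 and -0.51 in Mn toxicity replicates 1, 2 and 3.

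Beyond the members, the study's list holds 38 unigenes whose protein match is unnamed or differently worded but whose nucleotide match, domain or orthologous group is that of a ribosomal protein. These were chosen by the same contrast. All 38 had every Mn toxicity library above every control library on both scales, where 9.41% and 22.7% of all unigenes did, and 12 of them with the same sum of RPKM (2.78% of all). They had ratios of group means between 1.64 and 2.78 and a median of 1.96, against 1.87 for the 44 members. Their summed level was 3641, 3580 and 2891 RPKM under Mn toxicity, against 1775, 1709 and 1789 RPKM in the control. As deposited, 15 were called higher (background 2.09%), and 34 after median-of-ratios scaling (background 4.37%), with median log2 fold changes of 0.95 and 1.19. As deposited, 2 to 22 were called when 1 library was left out (background 0.479% to 5.65%). None was called with the same sum of RPKM (background 0.935%).

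Ribosome biogenesis factors assemble the subunits in the nucleolus and do not remain in the finished ribosome. The list holds 9 unigenes described as such factors, chosen by the same contrast. All 9 were above the controls in every Mn toxicity library on both scales, where 9.41% and 22.7% of all unigenes were. With the same sum of RPKM 3 of them were, where 2.78% of all unigenes were. BRX1 (TRINITY_DN34526_c0_g1), which in yeast serves the assembly of the large subunit, had 16.2, 18.4 and 11.9 RPKM under Mn toxicity, against 8.72, 8.10 and 8.58 RPKM in the control. The nucleolar GTP-binding protein 1 (TRINITY_DN18705_c0_g1), which in yeast acts on the precursor of the 60S subunit, had 16.6, 19.7 and 9.46 RPKM under Mn toxicity and 8.96, 7.40 and 8.72 RPKM in the control. The peter Pan-like protein (TRINITY_DN31189_c0_g1), whose yeast relative also serves the large subunit, had 12.5, 18.0 and 10.0 RPKM under Mn toxicity, against 5.29, 5.70 and 5.43 RPKM in the control. All 3 were highest in Mn toxicity replicate 2 as deposited, as were 24 of the 44 members, and among the Mn toxicity libraries replicate 3 was the lowest for all 3. Of the 9, limma called 3 higher as deposited (background 2.09%) and 8 when rescaled (background 4.37%), with median log2 fold changes of 0.93 and 1.15. It called 1 with no filter (background 0.985%) and none with the same sum of RPKM (background 0.935%). When 1 library was left out as deposited, it called 0 to 7 (background 0.479% to 5.65%).

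Unigenes of the same assembly component as a member, but not in the rows of the list used here, were not chosen as members, although rows of the list not used here may hold some of them. Components group contigs that share sequence, so they hold copies, fragments and chance neighbours of the members, and these unigenes carry no description. They numbered 142 in 32 of the 48 components of the members, and 65 were tested. As deposited, 1 was called higher and 1 lower, which is 1.54% in each direction, against 2.09% higher and 3.69% lower over all unigenes. After median-of-ratios scaling 4 were called higher and 1 lower, where 4.37% and 3.77% of all unigenes were called, and 11 (16.9%) were called higher there without Mn toxicity replicate 2, where 5.92% of all unigenes were. Every Mn toxicity library was above every control library for 16 of the 65 as deposited (24.6%), 25 after scaling (38.5%) and 1 with the same sum of RPKM (1.54%). The shares of all unigenes were 9.41%, 22.7% and 2.78%. In the opposite direction, every Mn toxicity library was below every control library for 15, 12 and 12 of the 65 in the same order. The shares of all unigenes in that direction are not given here, so nothing is read from these counts. The median log2 fold change of the 65 was 0.07 as deposited and 0.20 after scaling, with a range of -1.43 to 1.59 as deposited. Members and component neighbours thus differed in their medians, but the members had been chosen for being changed.

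The unigene called lower lay in the component of S30. TRINITY_DN47528_c1_g1 had 58.6, 85.3 and 63.2 RPKM under Mn toxicity, against 184, 188 and 181 RPKM in the control, the opposite direction to S30 on both scales, with a log2 fold change of -1.43 as deposited and -1.18 after scaling. The one called higher, TRINITY_DN44032_c1_g9 in the component of L9, had 1.18, 1.81 and 0.66 RPKM under Mn toxicity and 0.10, 0.06 and 0 RPKM in the control. Both were named after their values were seen.

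**Figure D4:**
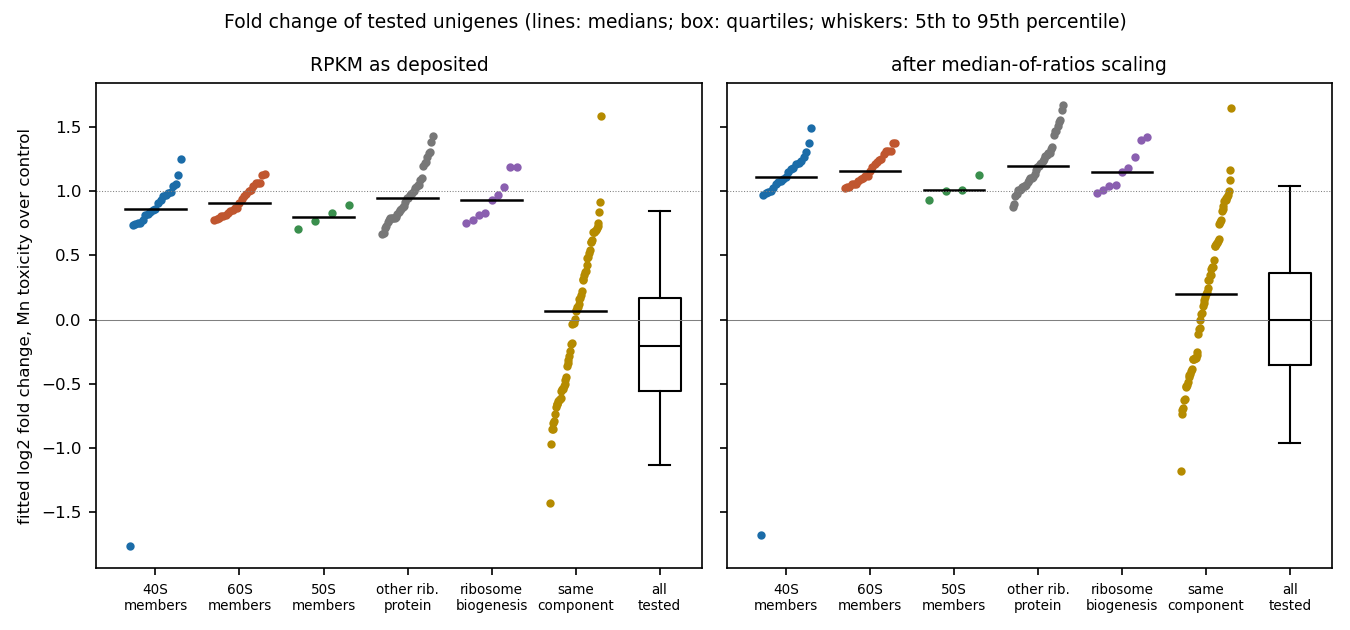
Log2 fold change from the fit, Mn toxicity over control, for the tested 40S (21), 60S (23) and 50S (4) members, the 38 other ribosomal protein unigenes, the 9 ribosome biogenesis unigenes and the 65 unigenes of the same assembly component, as deposited (left) and rescaled by median of ratios (right), with lines at the medians. The box shows the quartiles and the whiskers the 5th to 95th percentile of all 30913 unigenes tested. The 5 lists chosen by the contrast have medians of 0.80 to 0.95 on the left and 1.01 to 1.19 on the right, against 0.07 and 0.20 for the component neighbours.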

How the data were processed

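The authors sequenced leaf RNA with a directional kit on an Illumina instrument, assembled it with Trinity, mapped reads with Bowtie2 2.2.3 and estimated abundance with RSEM (version not given in the sources used here). They deposited 1 table of RPKM per library, 3 libraries per treatment. Levels and folds here come from these RPKM values. No fold change or p-value of the study was used.

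Members and lists came from the descriptions in the part of the study's list available here (1748 unigenes) and were chosen with earlier results of these data known. Values in every library are given for the 3 most abundant 40S and 60S members, all 50S members, pairs of 1 protein and stalk proteins, members under a mean of 5 RPKM or matching a fungus, alga or grass, the 2 largest and 2 smallest fold changes of the 40S and 60S classes, the members on either side of a log2 fold change of 1, and the 3 most abundant biogenesis unigenes.

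The test was limma 3.58.1 (R 4.3.3, moderated with an intensity trend) on log2(RPKM + 0.5) of the 30913 unigenes with a mean of at least 0.5 RPKM, with Benjamini-Hochberg adjustment. It was checked on simulated data with larger changes than those of the members and without differences of RPKM scale between libraries. The check therefore does not cover such differences or changes near the limit. The libraries of a group measure the spread between boxes. Whole reads and lengths were recovered from the RPKM steps, with the shortest length that made the reads of a unigene whole in every library. That 99.99% of values above 0 lay within 0.05 of a whole read is largely fixed by this choice. A multiple of a length, with the same multiple of its reads, would fit as well, so recovered reads and lengths may be too small. Floors of 3 reads cover counting error only. Alternatives were pseudocounts, filters, scalings, a replicate block, leaving out each library and, added after the data were seen, limma voom on recovered reads.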

Additional observations from a re-analysis of the deposited data

How the results depend on the processing

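The median log2 fold change of the members stayed above 0 under all 23 alternatives. It was 0.49 when each library was set to the same sum of RPKM (median over all unigenes -0.52), 1.15 for limma voom on recovered reads after median-of-ratios scaling, and 0.81 to 1.02 without any single library. Rescaled by median of ratios and without any single library it ran from 0.9999 to 1.29, with 1.135 without control replicate 1. The 44 members with a mean of at least 5 RPKM were above 0 under each of the 23. The difference between 40S and 60S moved by less than the spread between libraries under each. Counts of calls followed the scaling. Members called higher were 43 under median-of-ratios scaling, 34 with quantile normalization, 46 for voom with median-of-ratios scaling and 0 with the same sum of RPKM (0 also at an unadjusted p under 0.05), against 10 as deposited; without single libraries they were 0 to 26, and, rescaled by median of ratios, 37, 36, 35, 37, 45 and 24 when the control libraries and then the Mn toxicity libraries were left out by replicate number. Other ribosomal protein unigenes called were 34, 27, 34 and 0 in the same order (2 to 22 without single libraries, and 29, 32, 29, 30, 37 and 21 when rescaled, the omitted libraries in that order). Ribosome biogenesis unigenes called were 8, 6, 9 and 0, and 1 with no filter or with voom on library totals (0 to 7, and 6 to 9). Over all unigenes, 1350, 1249, 1687 and 289 were called higher in the same order, against 646 (148 to 1748 without single libraries, and 971, 1003, 916, 1170, 1830 and 1685 when rescaled), and those called lower ran from 141 to 4175 and from 760 to 1617 without single libraries. Component neighbours called higher were 4, 3 and 5 under median-of-ratios, quantile and voom with median-of-ratios scaling and 0 with a minimum mean of 2 RPKM (0 to 4, and 2 to 11), and 2 were called lower with a pseudocount of 0.1 or with voom on library totals (1 to 4, and 1). The cause of these changes was not tested. Libraries were not treated as paired by replicate number. Deviations of same-numbered libraries from their group means correlated at 0.08, -0.15 and -0.08, and not every library correlated best with its own number. These deviations include the scale differences between libraries, so they cannot decide whether boxes were paired. With the replicate block 925 unigenes were called higher and 1768 lower, and 10 members higher and 1 lower. Members of few reads, such as the second S3a and L19 unigenes, are limited by depth, since 8 to 12 reads stood against 0.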
